A study of Bos taurus with 43 samples.

Results

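The myogenic regulatory factors are 4 related transcription factors, MYOD1, MYOG, MYF5 and MYF6. Their signals were followed in biceps brachii muscle of cattle examined for corticosteroid treatment. Members were found by gene symbol, by the description printed for each probe or by the symbol behind its accession. Each of the 4 genes was represented by a single probe printed as 2 spots, so that 4 of the 21475 gene probes of the array were members. The probes were A_73_113547 for MYOD1, A_73_118948 for MYOG, A_73_119356 for MYF5 and A_73_112243 for MYF6.

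The factors share a basic helix-loop-helix domain, bind E-box motifs in DNA as dimers with E proteins and turn on muscle genes together with MEF2 factors. MYF5 and MYOD1 commit cells to the muscle lineage, and MYF5 is also a gene of satellite cells, the stem cells of muscle. MYOG drives the fusion and differentiation of committed cells, and MYF6, also called MRF4, is a factor of mature muscle fibres. In adult muscle of other mammals, MYOD1 is known to be more abundant in fast fibres and MYOG in slow fibres, and both respond to loss of the nerve supply. MYF5 and MYF6 lie next to each other in the ARS-UCD2.0 assembly of the bovine genome.

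The study asked whether gene expression in muscle can point to growth-promoter use, and hybridized 1 animal per single-colour array. The 43 arrays came from 4 animals suspected of corticosteroid treatment (S21, S54, S56 and S57), 21 commercial animals of unknown treatment, 5 untreated Charolais and Limousine cross-breed controls (K) and 13 untreated Holstein controls (C). According to the paper, the suspected animals were those positive by thymus histology with dexamethasone residues in urine. By its methods, all animals were male with overlapping age ranges, and both control sets came from earlier controlled experiments. The commercial animals were mostly Charolais, Limousine or their crosses, so that treatment, herd, breed and experiment were not separated between the suspected animals and either control set. Dose and duration of treatment were not given for any commercial animal. The paper drew the commercial animals from different batches of cattle, which the sample labels do not name. No test could take these batches into account, and animals of the same batch were treated as independent.

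Values are normalized log2 signals, in which 1 unit is a 2-fold change, and the probes of different genes are not set against each other. A signal was called well above background where the scanner software flagged every spot used. The share of all gene spots well above background was 74.95% to 89.4% in the suspected animals, 62.92% to 73.65% in the cross-breed controls, 62.34% to 73.22% in the Holstein controls and 40.21% to 97.29% in the unknown animals. The arrays of the cross-breed controls were scanned on days and scanners, and lay on slides, that held no other group. The cross-breed arrays were also read with other versions of the extraction software, 9.1.3.1 on 2 arrays and 9.5.3.1 on 3, against 9.5.1.1 on the other 38. Group and array batch therefore cannot be told apart in any comparison with the cross-breed controls, or in comparisons with the Holstein controls, whose slides and scan days held no other group.

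Defining muscle genes such as ACTA1, CKM, MB and DES, which code for skeletal actin, muscle creatine kinase, myoglobin and desmin, exceeded background on all 4 suspected and all 5 cross-breed arrays. Genes that carry limb position did not have the same level in all animals labelled biceps brachii. HOXA9, a homeobox gene of limb patterning, had signals of 10.30 to 11.67 in the 18 controls and of 1.98 to 4.22 in the 4 suspected animals at probe A_73_119831. Among the unknown animals, it lay at 10.98 to 11.37 in animals 263, 265, 266, 269 and 270 and at 1.77 to 5.74 in the other 16. The split depended on the probe. At another HOXA9 probe, A_73_101190, all 4 suspected animals were well above background at 6.77 to 7.47, the controls were at 7.82 to 8.98, the 5 named animals at 7.70 to 8.43 and the other 16 at 0.96 to 7.87. There animal 50 (7.87) lay within the range of the controls, and animals 266 (7.72) and 269 (7.70) lay below it. HOXC6, a homeobox gene of the anterior body, showed the opposite order, with 10.22 to 10.49 in the suspected animals, 9.73 to 10.82 in those 16 unknown animals, 6.78 to 8.20 in the 5 named animals and 3.18 to 5.89 in the controls. The probe for ZFY, a gene of the Y chromosome, read 2.84 to 4.53 in the 11 unknown animals scanned on days 4 and 5 and 5.47 to 7.26 in the other 32 animals, although all animals were described as male. The probes described as USP9Y and DDX3Y, also Y-linked, were well above background on all arrays. The part of limb position, and of whatever the ZFY signal reflects, in the results for the myogenic factors was not tested. Comparisons with unknown animals were therefore also made without each of these sets.

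**Figure D1:**
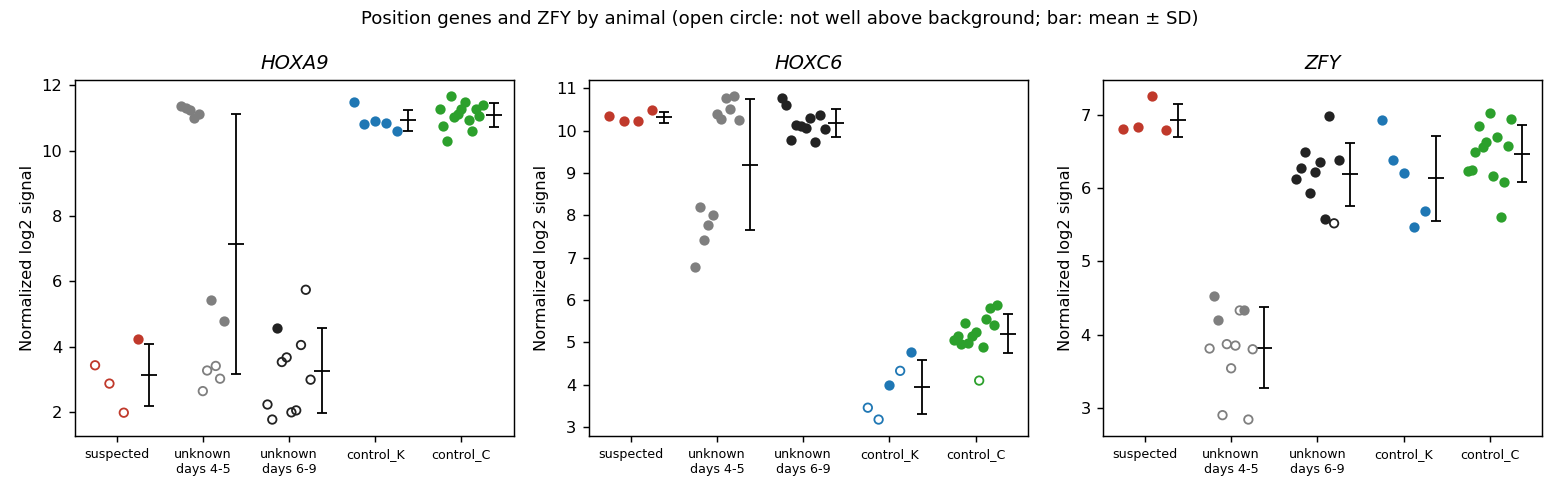
Normalized log2 signals of HOXA9 (probe A_73_119831), HOXC6 and ZFY in each of 43 animals, by group, with the unknown animals split by scan day. Bars give the mean ± SD. HOXA9 was at 10.30 to 11.67 in the controls and at 1.98 to 4.22 in the suspected animals, and ZFY was lowest in the unknown animals of scan days 4 and 5.

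In the suspected animals against the cross-breed controls, MYOD1 and MYF6 were lower and MYOG and MYF5 did not pass the test. At an adjusted p under 0.05, 2 of 4 factors were called, both lower, and 51.7% of the 16354 probes tested were called in the same fit. Both also changed at least 2-fold, as did 28.1% of all probes. The median log2 difference of the 4 factors was -0.89, beside -0.03 over all probes. A share of calls this close to the background is not a result about the factors as a group.

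MYOD1, the lineage factor, had signals of 11.07, 12.02, 10.54 and 11.11 in S21, S54, S56 and S57. In K7, K8, K10, K11 and K12 it had 13.49, 12.77, 13.21, 12.47 and 12.73. Every suspected animal was below every cross-breed control. MYOD1 averaged 11.19 ± 0.61 (SD, n = 4) against 12.93 ± 0.41 (SD, n = 5) and was thus 3.36-fold lower (log2 difference -1.75, standard error 0.30, limma adjusted p = 8.41e-04). When the 4 group means were fitted on all 43 arrays together, so that the wide spread of the unknown animals entered the error, the same difference had an adjusted p of 0.0898.

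MYF6, the factor of mature fibres, had signals of 12.58, 12.66, 12.22 and 12.15 in the suspected animals, in the same order. In the cross-breed controls it had 14, 14.08, 14.04, 14.08 and 13.27. Again the groups did not overlap, and K12 lay apart from the other 4 controls. The share of all probes without overlap was not counted in any comparison. Separation of ranges therefore only describes the probes or sums named, here and below. MYF6 averaged 12.40 ± 0.25 (SD, n = 4) against 13.89 ± 0.35 (SD, n = 5) and was thus 2.81-fold lower (log2 difference -1.49, standard error 0.21, limma adjusted p = 2.13e-04).

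MYOG, the differentiation factor, had signals of 12.90, 13.10, 14.52 and 13.32 in the suspected animals. In the cross-breed controls it had 14.34, 13.49, 13.33, 13.60 and 12.88. The groups overlapped almost completely, with the highest value in S56. The log2 difference was -0.07 (95% confidence interval -0.87 to 0.73, limma adjusted p = 0.893), an interval that holds changes of under 2-fold in either direction.

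MYF5, the satellite cell factor, was dim, with signals of 4.29, 4.68, 4.40 and 4.48 in the suspected animals and 4.03, 4.44, 4.96, 5.32 and 4.99 in the cross-breed controls. It was well above background on 3 of 4 and on 2 of 5 arrays. The log2 difference was -0.29 (95% confidence interval -0.84 to 0.26, limma adjusted p = 0.359). Its direction was set by the normalization, with a log2 difference of -2.17 after cyclic loess on every pair of arrays (adjusted p = 3.76e-04) and of 0.60 after 75th percentile scaling (adjusted p = 0.0431), and no direction is given for it here.

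**Figure D2:**
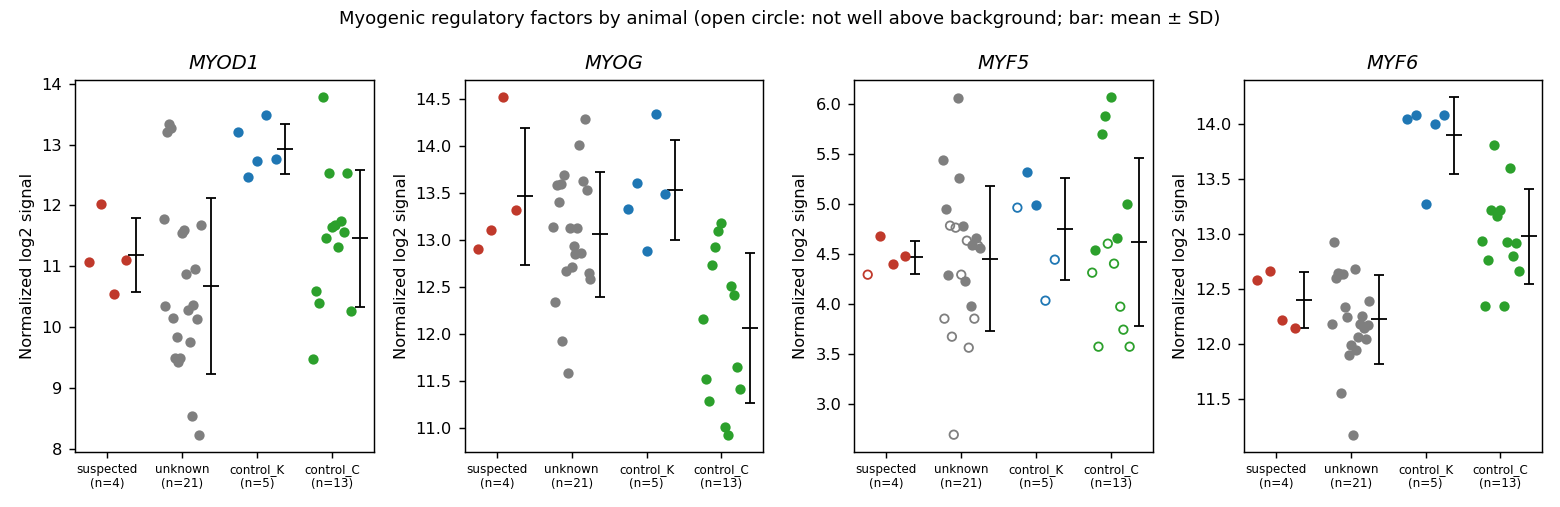
Normalized log2 signals of the 4 myogenic regulatory factors in each of 43 animals, by group (control_K are the cross-breed, control_C the Holstein controls). Filled circles are well above background, open circles are not, and bars give the mean ± SD. MYOD1 and MYF6 of the 4 suspected animals lay below all 5 cross-breed controls, while MYOG overlapped and MYF5 was near background.

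The Holstein and cross-breed controls were both untreated, and their comparison gives the distance between 2 control sets. MYOD1, MYOG and MYF6 were lower in the Holstein controls, so that 3 of 4 factors were called, beside 48.4% of all probes. At 2-fold or more, 2 of 4 were called, beside 20.6% of all probes. MYOD1 of the 13 Holstein controls ranged from 9.48 (C17) to 13.79 (C21), with a median of 11.56. The highest Holstein animal was thus above all cross-breed controls, and the other 12 lay between 9.48 and 12.54. The log2 difference was -1.47 (standard error 0.49, limma adjusted p = 0.0196). Without K7 the adjusted p was 0.0563, and in the fit on all 43 arrays it was 0.0603.

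MYOG ranged from 10.93 (C44) to 13.18 (C24) in the Holstein controls, with a median of 12.16. It was 2.76-fold lower than in the cross-breed controls (log2 difference -1.46, standard error 0.37, limma adjusted p = 0.00346). MYF6 ranged from 12.35 (C18) to 13.81 (C22), with a median of 12.93. It was 1.89-fold lower (log2 difference -0.92, standard error 0.21, limma adjusted p = 0.00182), and only K12 among the cross-breed controls fell within the Holstein range. MYF5 ranged from 3.57 to 6.07 and was well above background on 6 of 13 arrays (log2 difference -0.13, 95% confidence interval -0.94 to 0.68). Markers of other cells moved with this comparison as well. All 4 adipocyte probes were higher in the Holstein controls, with summed signals of 12.29 to 13.85 against 11.12 to 12.21, and 6 of 7 fibroblast probes were higher, with sums of 14.53 to 16.02 against 13.03 to 15.39. Their part in the result was not tested.

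Against the Holstein controls, the suspected animals differed in another factor. MYOG was 2.63-fold higher (means 13.46 ± 0.73 and 12.06 ± 0.80, SD, n = 4 and 13, log2 difference 1.40, standard error 0.42, limma adjusted p = 0.0158). It was the only factor called, 1 of 4, beside 36.4% of all probes, and the only factor called at 2-fold or more, beside 17.8%. Without S56, whose MYOG signal was 14.52, the log2 difference was 1.04 and the adjusted p was 0.0924. The summed signals of fibroblast markers, 12.01 to 13.69 in the suspected and 14.53 to 16.02 in the Holstein animals, and of endothelial markers, 12.53 to 13.47 and 10.77 to 12.25, did not overlap between these groups. Nor did the sums of nerve and Schwann cell markers, 13.02 to 13.46 and 11.94 to 12.72, or of muscle identity genes, 19.56 to 19.88 and 20.12 to 20.41. Of 7 fibroblast probes 6 were lower and of 5 endothelial probes 4 were higher in the suspected animals. The part of all these markers in the result was not tested. MYOD1 had a log2 difference of -0.28 (95% confidence interval -1.45 to 0.90). MYF6 had a log2 difference of -0.58 (95% confidence interval -1.05 to -0.10, adjusted p = 0.0534). With loess fitted on every pair of arrays it was -0.06 (adjusted p = 0.834), and over all 14 alternatives the adjusted p ran from 0.0444 to 0.834.

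**Figure D3:**
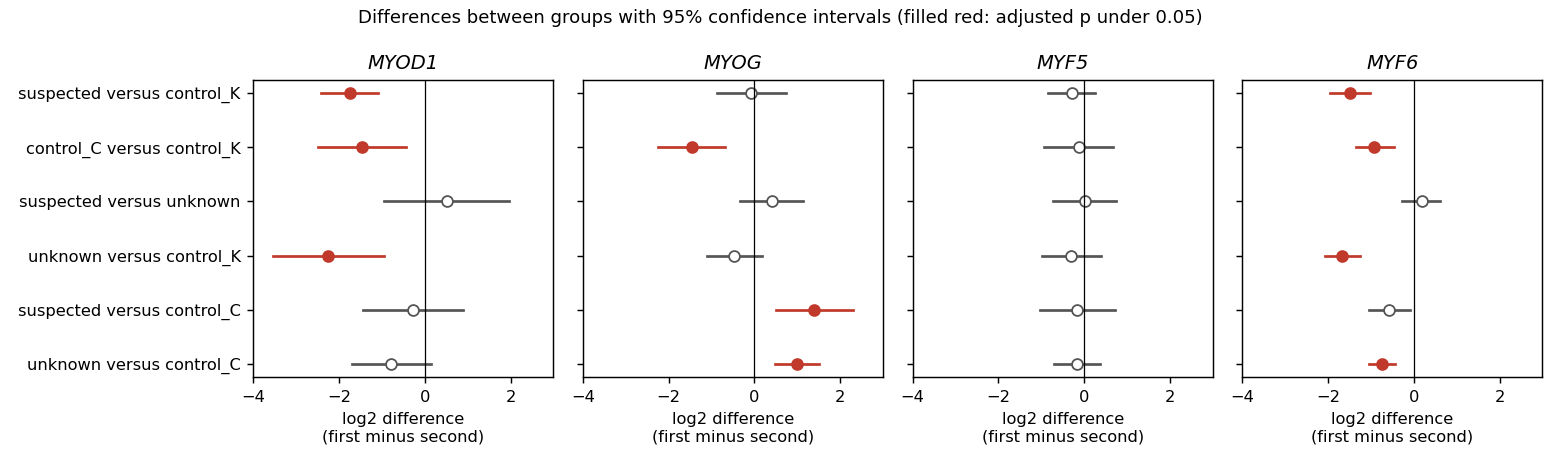
Differences in normalized log2 signal between groups for each myogenic regulatory factor, first group minus second, with 95% confidence intervals from the limma fits. Filled red symbols have an adjusted p under 0.05. MYF6 was lower than in the cross-breed controls in all 3 comparisons with them, and no factor passed the test between suspected and unknown animals.

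The 21 unknown animals covered a wide range. MYOD1 ran from 8.23 (animal 79) to 13.34 (animal 269), a 34.6-fold range, with a median of 10.34. Animals 266, 269 and 270 stood at 13.21, 13.34 and 13.27, and the next animal, 263, at 11.77, and all of these were among the 5 unknown animals with HOXA9 at the level of the controls at probe A_73_119831. The fifth of these, animal 265, had 10.34, the median of the unknown animals. MYOG ran from 11.58 (animal 38) to 14.28 (animal 76), with a median of 13.12. MYF6 ran from 11.18 (animal 50) to 12.93 (animal 265), with a median of 12.18. MYF5 ran from 2.69 to 6.06 and was well above background on 11 of 21 arrays.

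Against the cross-breed controls, the unknown animals had lower MYOD1 and MYF6, and 2 of 4 factors were called, beside 22.1% of all probes. Both passed 2-fold, beside 10.4% of all probes. MYF6 of all 21 unknown animals, at most 12.93, lay below the lowest cross-breed control at 13.27. Its log2 difference was -1.67 (standard error 0.20, limma adjusted p = 2.73e-06). MYOD1 had a log2 difference of -2.25 (standard error 0.63, limma adjusted p = 0.0113), with animals 266, 269 and 270 inside the cross-breed range. Random blocks for slides and for scan days gave MYOD1 an adjusted p of 0.0664 and 0.0912, and MYF6 passed with both. MYOG had a log2 difference of -0.47 (95% confidence interval -1.11 to 0.17). In the same comparison 3 of 4 adipocyte and 2 of 7 fibroblast probes were higher in the unknown animals, whose adipocyte sums ran from 11.91 to 14.91, and their part was not tested.

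Against the Holstein controls, the unknown animals had higher MYOG and lower MYF6. Here 2 of 4 factors were called, beside 36.8% of all probes, and 0 of 4 at 2-fold or more, beside 11.1%. By limma, 2 of 4 also had an unadjusted p under 0.05. MYOG had a log2 difference of 0.99 (standard error 0.25, adjusted p = 0.00234), which was 0.93 with an adjusted p of 0.161 when the scan day was a random block. MYF6 had a log2 difference of -0.75 (standard error 0.15, adjusted p = 2.41e-04). MYOD1 had a log2 difference of -0.78 (95% confidence interval -1.70 to 0.14, adjusted p = 0.178). Without animals 263, 265, 266, 269 and 270, whose HOXA9 signals at A_73_119831 lay in the range of the controls, it was -1.32 (adjusted p = 0.00744). With the unknown animals of scan days 6 to 9 alone it was also -1.32 (adjusted p = 0.0241), and with those of scan days 4 and 5 alone it was -0.29 (adjusted p = 0.652). Of 5 endothelial probes 3 were higher and of 7 fibroblast probes 3 were lower in the unknown animals, with endothelial sums of 11.15 to 13.87 and fibroblast sums of 13.08 to 15.83, and their part was not tested.

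Between suspected and unknown animals, 0 of 4 factors were called by limma, beside 0.0489% of all probes, and the share at 2-fold or more was 0.0489% as well. None of the 4 had an unadjusted p under 0.05 (0 of 4). The largest interval was that of MYOD1, with a log2 difference of 0.51 (95% confidence interval -0.95 to 1.96). It was 1.05 against the unknown animals of scan days 6 to 9 alone (adjusted p = 0.488) and 1.04 without animals 263, 265, 266, 269 and 270 (adjusted p = 0.293). This is the only comparison in which both groups shared slides. On slide 8, with 2 animals of each group, MYOD1 averaged 10.83 in the suspected and 11.63 in the unknown animals (difference -0.81). On slide 9, it averaged 11.55 and 9.18 (difference 2.36), so that the direction differed between the slides. MYF6 was higher in the suspected animals on both slides, by 0.40 and 0.51. With the slide as a fixed term, MYF6 had a log2 difference of 0.45 (95% confidence interval -0.12 to 1.03, limma adjusted p = 0.535).

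Ordered by mean, MYOD1 fell from the cross-breed controls (12.93) to the Holstein controls (11.46), the suspected animals (11.19) and the unknown animals (10.68), and only the first step passed the test. MYOG went from the cross-breed controls (13.53) to the suspected (13.46), the unknown (13.06) and the Holstein animals (12.06), and only the last step passed. MYF6 went from the cross-breed controls (13.89) to the Holstein controls (12.98), the suspected (12.40) and the unknown animals (12.23), and only the first step passed. MYF5 means, near background, lay between 4.45 and 4.75, and no pair of groups passed the test. They are not ordered here, since the direction of MYF5 was set by the normalization. MYOD1 and MYF6 thus had the same order of group means, and MYOG another.

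The relation of the factors to fibre type was examined through MYH1, the fast myosin heavy chain of type IIx fibres, and MYH7, the slow heavy chain of type I fibres. MYH1 had 2 probes for a single accession, and A_73_102524, the brighter in the mean over all 43 arrays (14.93 against 14.60), was used first. In both control sets the other probe, A_73_117636, was the brighter (means 17.14 against 15.72 and 17.62 against 17.35). The first probe read 15.25, 8.96, 11.24 and 10.42 in the suspected animals, 15.34 to 16.06 in the cross-breed controls, 16.99 to 17.69 in the Holstein controls and 8.30 to 17.42 in the unknown animals. The other probe ran from 6.74 (animal 61) to 17.17 (animal 52) in the unknown animals. At the first probe S21 was just below the lowest cross-breed control and the other 3 suspected animals far below. At the other probe S21, at 13.64, was also well below the lowest cross-breed control at 16.40. MYH1 was lower in the suspected animals by both probes, with log2 differences of -4.25 and -7.32 (limma adjusted p = 0.00475 and 1.78e-04). Near-identical fast myosin genes could share signal with these probes, and no probe was named for the type IIa gene here. MYH7 was 17.84 to 18.21 in the suspected animals and 16.52 to 17.40 in the cross-breed controls, and was higher by 0.99 (adjusted p = 0.00296). Relative to the cross-breed controls, fast myosin was thus lower and slow myosin higher in the suspected animals, beside lower MYOD1 and MYF6. Within the suspected animals the order differed, since S54 had the lowest MYH1 (8.96) and the highest MYOD1 (12.02).

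Correlations over animals were computed within the unknown and the Holstein animals only, since the other groups were too small and groups coincide with batches. Across 4 factors, 2 myosins and 2 groups, 16 relations were tested, and 0 had an adjusted p under 0.05. The relation of MYOD1 to MYH1 in the unknown animals was positive, with r = 0.47 (permutation p = 0.0308, adjusted p = 0.247) and rho = 0.55 (permutation p = 0.0107, adjusted p = 0.171, n = 21). Without the 2 animals farthest from the median of MYH1, 61 and 79, r was 0.43 (permutation p = 0.0653). Within scan days 4 and 5, r was 0.76 (n = 11, permutation p = 0.00514 before adjustment). In these 11 animals the 5 highest MYH1 signals, 14.79 to 15.13, were those of animals 263, 265, 266, 269 and 270, and the other 6 animals had 12.67 to 14.55, so that r spans 2 sets that also differed in HOXA9. Over the unknown animals without these 5, r was 0.53 (n = 16, permutation p = 0.0376 before adjustment). Within scan days 6 to 9, it was 0.56 (n = 10, permutation p = 0.100). After both measures were centred on scan-day means, r was 0.49 (n = 20, permutation p = 0.0257).

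With the other MYH1 probe, a choice made after seeing the data, r was 0.62 and the adjusted p was 0.0435. Without animals 29, 39, 52, 61 and 76, whose spike-in control RNAs were dim, r was 0.69 with an adjusted p of 0.0362. The relation thus kept its sign in these settings, and whether it passed the threshold depended on the MYH1 probe and on the animals used. In the 13 Holstein animals, whose MYH1 signals spanned only 16.99 to 17.69, r was 0.09 (permutation p = 0.777). The difference between the 2 groups was not tested.

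**Figure D4:**
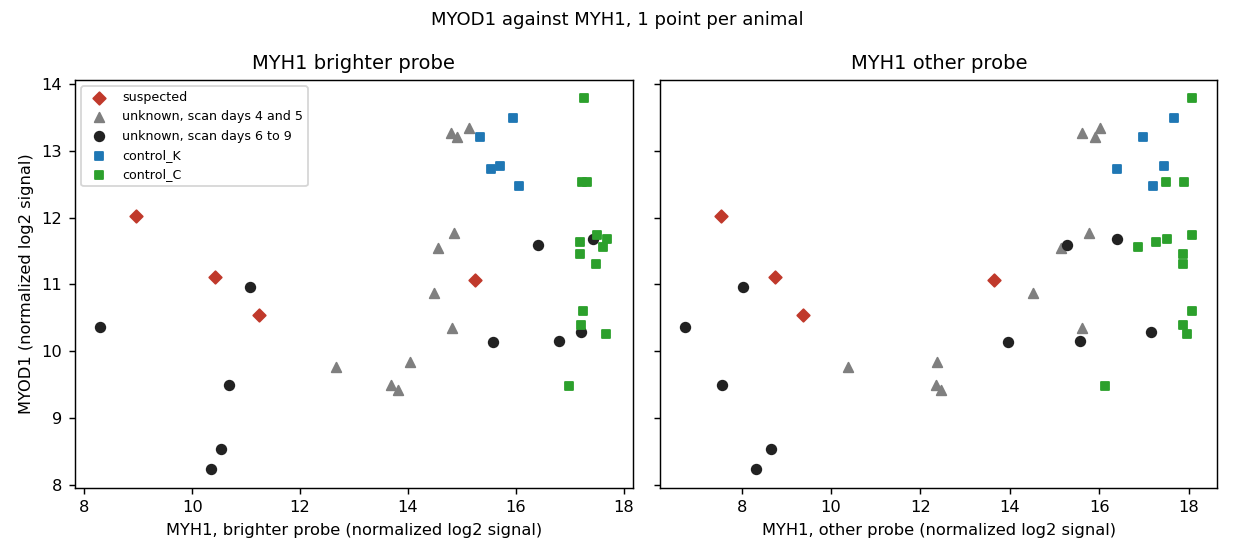
MYOD1 against MYH1 in normalized log2 signal, 1 point per animal, for the MYH1 probe used first (left) and the other probe (right). In the unknown animals r was 0.47 and 0.62, and the Holstein controls lay in a narrow range of MYH1 but a wide range of MYOD1, from 9.48 to 13.79.

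The other factors showed no relation to MYH1 that passed the test. In the unknown animals r was -0.30 for MYOG (permutation p = 0.190), 0.04 for MYF5 and -0.08 for MYF6. In the Holstein animals r was -0.45 for MYOG (permutation p = 0.123), -0.46 for MYF5 and -0.33 for MYF6. That of MYF6 was -0.63 after centring on scan-day means (permutation p = 0.0254 before adjustment) and 0 to 2 decimals without the 2 animals farthest from the MYH1 median, C41 and C48. MYH7 of the unknown animals fell into separate clusters, with 12 animals at 16.39 to 17.11 and 9 at 17.75 to 18.50. The MYH7 probe was saturated on 1 of the 21 arrays of unknown animals, and its signal there is a lower limit. The lower cluster held all 11 animals of scan days 4 and 5 and animal 76, and no pooled r is given. The pooled relation of MYF6 to MYH7, negative but spanning both clusters, had the smallest permutation p for r of the 16 relations (0.0104, adjusted p = 0.167). Within the lower cluster, r with MYH7 was -0.32 for MYOD1, 0.64 for MYOG, -0.64 for MYF5 and -0.33 for MYF6 (permutation p = 0.306, 0.0251, 0.026 and 0.294). Within the upper cluster it was 0.50, 0.46, 0.32 and 0.53 in the same order (exact permutation p = 0.168, 0.215, 0.403 and 0.140), so that only MYOG had the same sign in both. MYF5 was well above background in only 5 of the 12 animals of the lower cluster, and its correlations are largely of background signal. After centring on scan-day means, MYOG had r = 0.58 with MYH7 over the unknown animals (permutation p = 0.00712), and none of these p-values is adjusted. Within scan days 6 to 9 alone, r of MYOG with MYH7 was -0.35 (n = 10, permutation p = 0.316), and within scan days 4 and 5 it was 0.52 (n = 11, permutation p = 0.103), so that the sign was not the same in all settings. In the Holstein animals, r with MYH7 was 0.37 for MYOD1 (permutation p = 0.212) for the others 0.00 (MYOG), -0.19 (MYF5) and 0.04 (MYF6).

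The factors were also set against each other, as 6 pairs in each of the same 2 groups. Of these 12 relations, the highest correlation was that of MYOG and MYF6 in the Holstein controls, with r = 0.73 (permutation p = 0.00432, adjusted p = 0.0518) and rho = 0.75 (permutation p = 0.00415, adjusted p = 0.0498, n = 13). Without the 2 animals farthest from the MYOG median r was 0.74, and after centring on scan days it was 0.74. In the Holstein controls all 6 pairs had a positive r, from 0.35 to 0.73, whereas in the unknown animals r ran from -0.33 to 0.28. For MYOG and MYF6 it was 0.13 in the unknown animals (permutation p = 0.559), and the difference between the groups was not tested. None of the 8 relations to the share of spots well above background passed the test, and the largest r was 0.40, for MYOD1 in the unknown animals (permutation p = 0.0719, adjusted p = 0.576).

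Partners of the factors were represented by 8 probes. In the suspected animals against the cross-breed controls, 1 was higher, 4 were lower and 3 were not called, with a median log2 difference of -0.41 beside -0.03 over all probes. Calls made up 62.5% of the partner probes, beside 51.7% of all probes. MEF2C, a MEF2 factor that works with MYOD1 and MYOG, was lower by 2.36-fold (log2 difference -1.24, adjusted p = 0.00404). MEF2D was lower at its bright probe (log2 difference -0.72, adjusted p = 0.00356) and did not pass at its dim probe (-0.17, adjusted p = 0.478). TCF4, an E protein, was higher (log2 difference 0.98, adjusted p = 0.00219), whereas TCF3, the E protein E2A, was lower (log2 difference -0.57, adjusted p = 0.0177). TCF12 was lower, at 2.84 to 3.40 against 4.51 to 5.61 (adjusted p = 1.32e-04), and no fold is given because it was well above background on only 1 of 4 suspected and 4 of 5 control arrays. MEF2A (-0.26) and MEF2B (0.51) did not pass.

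Inhibitors of the factors had calls in both directions. Of 13 probes tested, 2 were higher, 5 were lower and 6 were not called, with a median of -0.11. The share called, 53.8%, was close to the 51.7% of all probes and is not a result about the inhibitors as a group. ID proteins bind E proteins and keep them from the myogenic factors. ID4 was 8.02-fold lower (means 6.46 ± 0.19 and 9.46 ± 0.73, adjusted p = 5.18e-05) and ID2 was 2.34-fold lower (adjusted p = 0.0013), while ID3 was 2.67-fold higher (adjusted p = 0.00153). ID1 had a log2 difference of 0.41 (adjusted p = 0.189). MSTN, myostatin, which restrains muscle growth, was 5.14-fold lower (means 5.30 ± 0.20 and 7.66 ± 0.77, adjusted p = 3.03e-04). No probe was named for TWIST2 or MSC here.

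Of 14 probes for upstream factors and satellite cell genes, 1 was higher, 5 were lower and 8 were not called, with a median of -0.44. Here 42.9% were called, beside 51.7% of all probes. SDC4, a syndecan of satellite cells, was 2.94-fold lower (adjusted p = 7.36e-05) and EYA1, a transcriptional coactivator of early myogenesis, was 2.09-fold lower (adjusted p = 0.00152). CDH15, M-cadherin, was 1.61-fold lower (adjusted p = 0.00883), and SDC3, another syndecan, 1.84-fold higher (adjusted p = 0.0177). PAX3, which acts before the myogenic factors in the embryo, had a log2 difference of 0.56 (adjusted p = 0.403). No probe was named for PAX7, the defining satellite cell gene, here. In bulk muscle, fewer cells of a type and less RNA per cell cannot be told apart.

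Targets of the factors were the longest list, with 5 of 20 probes higher, 9 lower and 6 not called, and a median of -0.52. Calls thus made up 70% of this list, beside 51.7% of all probes, and among all called probes 50.7% were lower. The lower target probes included 4 subunits of the acetylcholine receptor, whose promoters carry E-boxes. CHRNG, the fetal subunit, was 4.43-fold lower (means 6.93 ± 0.64 and 9.08 ± 0.84, adjusted p = 0.00218) and CHRNB1 3.39-fold lower (adjusted p = 1.35e-04). CHRNA1 was 2.36-fold lower (adjusted p = 0.0016) and CHRNE, the adult subunit, 2.68-fold lower (adjusted p = 0.039). CHRND had a log2 difference of 0.20 (adjusted p = 0.633). RYR1, the calcium release channel of muscle, was 2.91-fold lower (adjusted p = 5.9e-05). CDKN1C, a cell cycle inhibitor, was 2.76-fold higher (adjusted p = 6.02e-04).

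Genes known to respond to loss of innervation overlap with the targets. Of 13 probes, 2 were higher, 7 were lower and 4 were not called, with a median of -0.78. The share called was 69.2%, beside 51.7% of all probes. SLN, sarcolipin, which inhibits the calcium pump, was 7.54-fold lower (means 12.65 ± 0.64 and 15.57 ± 0.26, adjusted p = 2.11e-05). Both probes of RUNX1 were called in opposite directions, with log2 differences of 1.39 and -1.20, and the gene has no single direction here. MYH3, the embryonic myosin, had a log2 difference of 1.09 (adjusted p = 0.0914). More lower than higher calls were not particular to the suspected animals. In the Holstein against the cross-breed controls, 3 of 13 probes were higher and 7 lower, with a median of -1.1 (76.9% called, beside 48.4% of all probes). In the unknown against the cross-breed animals, 0 were higher and 6 lower (46.2%, beside 22.1%). Against the Holstein controls, the suspected animals had 5 higher and 1 lower (46.2%, beside 36.4%).

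Among 15 probes of contractile genes, 5 were higher and 7 were lower, together 80% beside 51.7% of all probes. The lower ones were the fast-fibre genes MYH1, MYBPC2 (64.6-fold), ATP2A1 (34.8-fold), TNNC2 (22.5-fold), ACTN3 (9.91-fold) and TNNT3 (6.57-fold). The higher ones included the slow-fibre genes MYL3 (4.26-fold), TNNT1 (2.16-fold), MYL2 (2.15-fold) and MYH7 (1.99-fold), all with adjusted p under the threshold in the limma fit. Of 10 limb position probes, 1 was higher and 7 were lower, also 80%. HOXA9 was at least 119-fold lower at probe A_73_116160, which was not well above background in any suspected animal, and 2.67-fold lower at A_73_101190, which was well above background in all 4. HOXC6 was higher, at 10.22 to 10.49 against 3.18 to 4.77 (adjusted p = 8.07e-07), and no fold is given because it was well above background in only 2 of 5 cross-breed controls. HOXD9 was lower at both probes (log2 differences -1.36 and -1.77), and TBX15 was 3.27-fold lower. PITX1 (-0.70) and TBX4 (0.29) did not pass, and TBX5 was too dim to be tested. The called contractile and limb position genes moved with MYOD1 and MYF6 in this comparison, and their part in it was not tested.

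Markers of other cells also moved with the comparison, in a fit that called 51.7% of all probes. All 4 adipocyte probes tested were higher in the suspected animals, among them CIDEC, a lipid droplet protein (17-fold). FABP4, a fatty acid binding protein of fat cells, read 9.30 to 10.34 against 1.75 to 6.44 and was well above background in only 3 of 5 cross-breed controls. The summed adipocyte signal was 13.31 to 13.73 (log2) in the suspected animals and 11.12 to 12.21 in the cross-breed controls, with LPL the brightest probe and ADIPOQ, adiponectin, and LEP, leptin, not well above background in any cross-breed control. Of 5 endothelial probes 4 were higher, with summed signals of 12.53 to 13.47 against 11.35 to 12.34 and VWF the brightest. Of 7 fibroblast probes 1 was higher and 3 were lower, among them COL1A1 (5.11-fold lower), with sums of 12.01 to 13.69 against 13.03 to 15.39, DCN the brightest and 1 probe each of COL1A2 and PDGFRA never well above background in either group. Of 4 nerve and Schwann cell probes, S100B was 5.59-fold higher and PMP22 1.68-fold lower, with sums of 13.02 to 13.46 against 12.38 to 12.99 and PMP22 the brightest. Of 6 leukocyte probes 1 was lower (ITGB2, the brightest), with sums of 9.66 to 10.04 against 9.64 to 11.31. Of 4 smooth muscle probes 2 were higher, with sums of 14.02 to 14.96 against 13.24 to 13.97 and ACTA2 the brightest. Of 2 erythroid probes 2 were higher, with sums of 8.76 to 9.50 against 7.07 to 8, HBA the brightest and ALAS2 never well above background. Of 12 muscle identity probes 3 were higher and 6 lower, among them PYGM, muscle glycogen phosphorylase (3.19-fold lower). NEB, nebulin of the thin filament, was 23.6-fold lower at one probe and did not pass at the other (log2 difference -1.45, adjusted p = 0.148). TTN, titin, was called in opposite directions by its probes (log2 differences -1.46 and 0.99), and has no single direction here. The sum over muscle identity genes, with MB the brightest, was 19.56 to 19.88 in the suspected animals and 19.39 to 20.19 in the cross-breed controls. These sums overlapped, but they add genes that moved in opposite directions and do not measure muscle content. MB was higher, at 18.29 to 18.81 against 17.23 to 18.08, as was ACTA1, at 17.55 to 17.86 against 15.78 to 16.72. TNNC2 was lower, at 11.47 to 15.08 against 17.03 to 18.17. The part of the other cell types in the results was not tested.

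**Figure D5:**
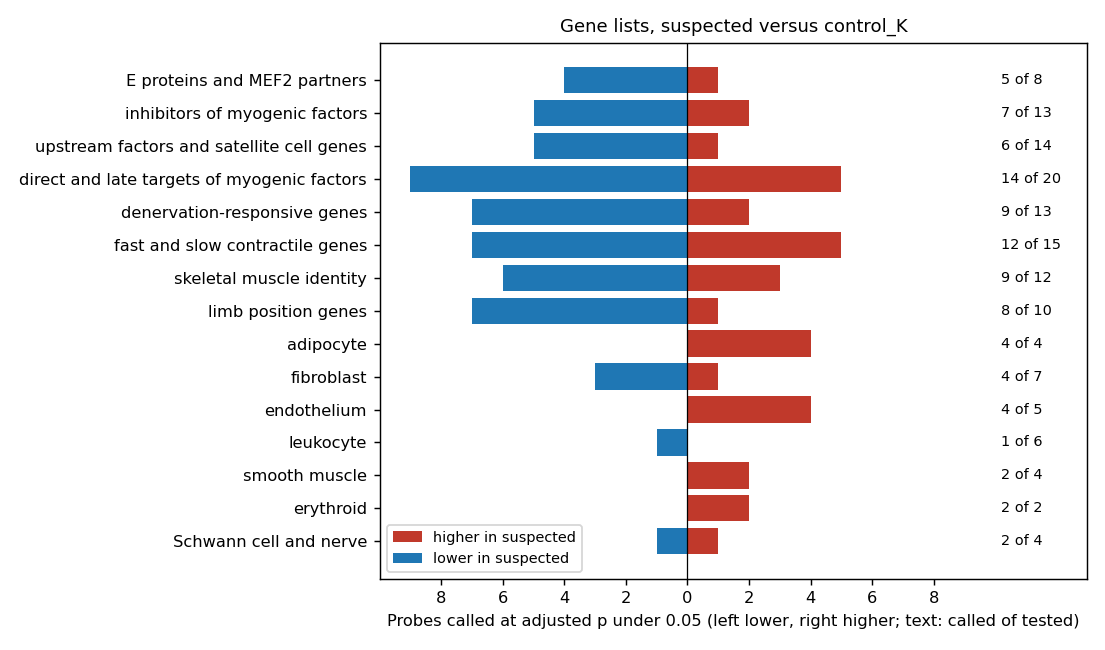
Number of probes called higher (red, right) or lower (blue, left) in the suspected animals than in the cross-breed controls, for each gene list, with the number called of those tested. In the same fit 51.7% of all 16354 probes were called. Targets of the myogenic factors and denervation-responsive genes had more lower than higher calls (9 against 5, and 7 against 2), and adipocyte genes only higher calls (4 of 4). Denervation-responsive genes also had more lower than higher calls in the Holstein against the cross-breed controls (7 against 3), which are not drawn here.

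In the comparison of both control sets, in which 48.4% of all probes were called, calls in the partner and target lists were at 50% of the probes tested. The share was 84.6% in the inhibitor list (median log2 difference -0.62) and 66.7% in the contractile list. In the Holstein controls 0 of 8 partner probes were higher and 4 lower, 4 of 13 inhibitor probes were higher and 7 lower, and 3 of 20 target probes were higher and 7 lower. Against the unknown animals, the suspected animals had 0 called probes in the partner, inhibitor and target lists by limma, in a fit with 8 calls among all 16354 probes. Against the Holstein controls, in a fit with 36.4% of all probes called, 2 of 8 partner probes were higher and 0 lower in the suspected animals, 3 of 20 target probes were higher and 6 lower, and 6 of 13 inhibitor probes were higher and 1 lower. The comparisons share animals, so that these counts are not independent of each other.

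The probes whose signals were most like each factor were looked up over all 43 animals, on signals centred on the 4 group means, among 11132 other named probes. For MYOD1 they were ARHGAP22 (r = 0.82), PCDH18 (0.75), a protocadherin, AMPD1 (0.71), the adenosine monophosphate deaminase of muscle, CST6 (0.71), a cystatin, and MANBA (0.71), a lysosomal mannosidase. For MYOG they included MARVELD1 (0.60), AP1S1 (0.58), SPRY2 (0.57) and SPG21 (0.55). For MYF6 they were RBM7 (0.61), SLC38A2 (0.60), an amino acid transporter, REXO2 (0.58), CAMLG (0.56) and MTPN (0.56). For MYF5 they were NEU3 (0.68), MBTPS2 (0.59), DDB2 (0.59), DBX1 (0.57) and ZNF227 (0.55), of which NEU3 and DBX1 were well above background on only 25 and 19 arrays. These correlations describe arrays that share slides, scan days and quality, and are not tests. None of the 4 factors was among the 5 probes most like another.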

How the data were processed

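Muscle RNA of 43 animals had been hybridized to single-colour Agilent bovine arrays. For each spot the authors deposited scanner intensities from Agilent Feature Extraction, of which the processed intensity is detrended and background-subtracted. A deposited value table of intensities was used as an alternative. The log2 of the processed signal was normalized by fast cyclic loess across the 43 arrays (limma 3.58.1, R 4.3.3), and the spots of a probe were averaged without outlier spots. Probes under 4 on at least 30 of 43 arrays were removed, which left 16354 of 21475. Each pair of groups was fitted alone with lmFit and eBayes, and p-values were adjusted by Benjamini-Hochberg over all 16354 probes. The fits were tested on simulated data with independent arrays and, for each probe, the same spread in both groups. A log2 change of 1 was called for 37% (suspected against unknown) to 73% (unknown against Holstein) of changed probes. In suspected against cross-breed animals it was 47%. For a log2 change of 2 the range was 76% to 97%. A factor that was not called can thus still differ, and the unknown animals spread more widely than the simulation assumed.

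Correlations were tested two-sided with 100000 permutations, or exactly under 10 animals. Symbols came from the array's descriptions, gene names or accessions through a RefSeq gene table, and 7755 of 21475 probes had none. From each gene list the text names up to 4 called probes with the largest change between suspected and cross-breed animals that were well above background on all arrays of the brighter group, and the rule also takes all members of lists of up to 7 genes, of which the marker lists are given by counts and sums. The text also names the probes most like each factor, up to 5 for each, of which 1 is not reported here. Other members were named after their values were seen (CHRND, CHRNE, ID1, PAX3, MYH3, ACTN3, TNNT3, MYL2, MYL3, TNNT1, ACTA1, CKM, MB, DES, and the second probes of MYH1, RUNX1, NEB and TTN). "At least" folds raise the dim group to the lowest signal well above background on each array. The number of arrays limits the precision. Members, gene lists, ZFY and the sets of unknown animals were chosen with earlier results of these data known. Alternatives were other normalizations, normexp background correction (offset 50), other filters, a common fit, slide or scan day as blocks and left-out animals. Subsets of the unknown animals by scan day or HOXA9 and the other MYH1 probe were chosen after seeing the data.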

Additional observations from a re-analysis of the deposited data

Results flagged for a closer look

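K12 had an MYF6 signal of 13.27, and the other 4 cross-breed controls had 14 to 14.08, so that the gap to its nearest neighbour took 0.904 of the range of the group. This was the only value that stood apart in this way among 14 sets of values of the factors, MYH1 and MYH7 in the suspected animals and the cross-breed controls. Chance alone places about 1 set in 20 past this limit. Without K12 the log2 difference of MYF6 between suspected animals and cross-breed controls was -1.65.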

How the results depend on the processing

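Of the counts recomputed under the alternatives, 106 stayed within 1.5 times the value in the report and 13 did not. In suspected against cross-breed animals, a common fit of 43 arrays called 1 factor (MYF6), and leaving out single animals gave 2 in each case. MYF6 was called in all 19 alternatives, with log2 differences of -1.65 to -0.98 and adjusted p of 5.31e-05 to 0.00186. In unknown against cross-breed animals, slide blocks and scan-day blocks called 1 each (MYF6). In suspected against Holstein animals, 2 were called with 75th percentile scaling, with loess fitted on every array pair, with the authors' deposited value table, with no filter and with a filter on probes well above background, and leaving out single animals gave 0 (without S56) to 1. In unknown against Holstein animals, scan-day blocks called 1 (MYF6). Of the 8 relations to myosins in the unknown animals, 1 passed without the 2 animals farthest from the myosin median (MYF6 with MYH7, across both clusters), 1 without animals 29, 39, 52, 61 and 76, and 1 with the other MYH1 probe.

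Among single differences, 361 kept direction and side of the threshold, 7 lost and 9 gained the call, and 19 turned, all of them differences of MYF5 or MYOG that were not called in the report. In suspected against cross-breed animals, MYOG was 0.08 with 75th percentile scaling, 0.33 with loess on every pair and -0.42 to 0.14 without single animals, and MYF5 was 0.60 with 75th percentile scaling. Between control sets, MYF5 was -0.31 to 0.01 without single animals. In suspected against unknown animals, MYF5 was -0.37 (quantile), -1.12 (loess on every pair), -0.16 (value table), -0.12 (slide block), -0.14 (scan-day block), -0.01 (without the 5 animals with dim spike-in RNAs), -0.18 (shared slides) and -0.06 to 0.07 (without single animals). Against Holstein controls, MYF5 was 1.15 (75th percentile) and 0.01 (normexp) in suspected, and 0.50 (75th percentile) and 0.03 (value table) in unknown animals.

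Among relations in the unknown animals, r with MYH1 turned for MYF5 to -0.03 (centred on scan days) and -0.04 (scan days 6 to 9), for MYOG to 0.03 (without the 5 animals), and for MYF6 to 0.46 (scan days 4 and 5) and 0.11 (other probe). In the Holstein animals it turned for MYOD1 to -0.24 (centred), for MYOG to 0.00 (75th percentile), and with the other probe to 0.11 for MYF5 and 0.09 for MYF6. With MYH7 it turned for MYF5 to 0.07 (75th percentile), 0.49 (loess on every pair) and 0.18 (centred), for MYF6 to -0.01 (loess on every pair) and -0.50 (without 2 animals), and for MYOG to -0.33 (without 2 animals). The cause was not tested for any of these.

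The number of calls over all probes also moved. It went from 8458 to 4915 (common fit) in suspected against cross-breed animals. It went from 3611 to 1915 (scan-day block), 5529 (scan days 4 and 5) and 8090 (scan days 6 to 9) in unknown against cross-breed animals. It went from 5950 to 3880 (common fit), 9425 (loess on every pair) and 9893 (no filter) in suspected against Holstein animals, and from 6013 to 2985 (slide block) and 1084 (scan-day block) in unknown against Holstein animals. In suspected against unknown animals it went from 8 to between 0 and 1562 (no filter), with 1359 in the common fit. Of the calls between suspected and cross-breed animals, 49.3% were higher, and 61.4% with 75th percentile scaling and 37.2% with loess on every pair, which moved the median of all probes from -0.03 to 0.11 and -0.25. The same settings moved this share in suspected against Holstein animals from 48.6% to 76.1% and 35.4%, and 75th percentile scaling moved it from 49.4% to 38.7% between control sets and from 48% to 65.3% in unknown against Holstein animals. No paired analysis was possible because the labels number different animals in each group and tie no animal of one group to an animal of another. Dim signals limit MYF5, and the number of arrays limits all comparisons.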
